A study of Mus musculus with 12 samples.

Results

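Sgk1, serum/glucocorticoid regulated kinase 1, was 1 of the 584 genes in the table that the authors deposited for hippocampal RNA of mice housed in 2 ways, and it was taken as the row with that symbol. The 3 SH libraries came from male C57BL/6 mice weaned at 3 weeks and kept for 5 weeks in standard cages, and the 3 EE libraries from males kept as long in an enriched environment, a cage with toys, tunnels and hideouts and with more animals than a standard cage. All mice were wild type and 8 weeks old, the treatment label of every sample is untreated although the titles mark SH as ctrl and EE as treat, and nothing in the labels ties a library to 1 animal, so p-values measure the spread between these libraries. Another 6 libraries of RNA pulled down with an antibody to m6A were not analysed here. The table holds only genes that the authors had called different between EE and SH, so Sgk1 entered it through the same contrast that is described here, and every p-value is conditional on that selection.

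SGK1 is a serine/threonine kinase of the AGC family and a close relative of AKT. Its gene is transcribed rapidly when glucocorticoid hormones bind their receptor, and also after serum, osmotic stress or neuronal activity, while the protein is switched on by phosphorylation downstream of PI3-kinase, through mTORC2 and PDK1. Known substrates include the ubiquitin ligase NEDD4L and the NDRG proteins, and in the hippocampus the gene is known for its response to stress hormones and to spatial learning.

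Sgk1 lies on chromosome 10 at chr10:21882184-21999903 of GRCm38, the build that the files call mm10, on the plus strand. RefSeq gives it 6 transcripts, which start at 6 places and end at the same base. The farthest start, of transcript NM_001161845, lies 112482 bases before that of NM_011361, the last start of the gene, and the others lie 15994, 8562, 2443 and 776 bases before it. Each transcript has a first exon of its own, and the last 11 exons, 2296 bases long, are common to all of them. These shared exons make up between 73.9% of NM_001161845 and 95.7% of NM_001161848. The proteins are 404 to 524 residues long, with 431 residues for NM_011361. NM_001161847 and NM_001161848 have no start codon in their first exon and both encode 404 residues from the shared exons, whereas the other transcripts start their proteins in their own first exons. The counts are 1 number per gene and cannot tell these forms apart.

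**Figure D1:**
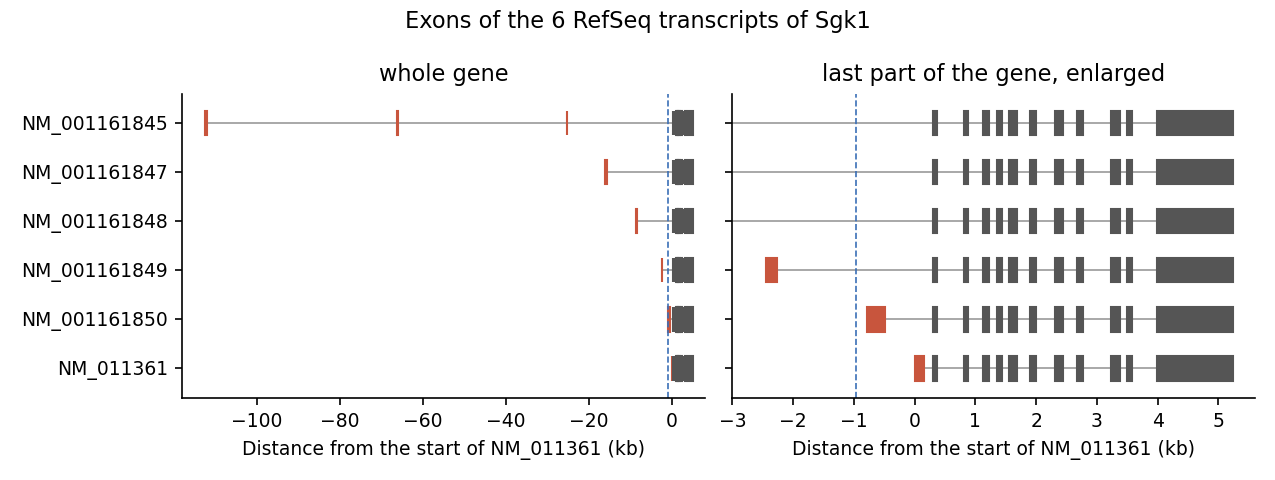
Exons of the 6 RefSeq transcripts of Sgk1 by distance (kb) from the start of NM_011361, for the whole gene on the left and for its last part on the right. Grey boxes are the 11 exons shared by all transcripts, red boxes the exons that are not shared, and the dashed blue line marks the glucocorticoid response element that lies 965 to 951 bases before the start of NM_011361.

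Since Sgk1 is named after its hormone, the 250 bases before each of the 6 starts were searched on both strands for the palindrome that the glucocorticoid receptor binds, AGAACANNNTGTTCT, in which N is any base. A full match was found before NM_001161850 only, at chr10:21993701-21993715, which is 189 to 175 bases before that start. The same window holds the E-box CACGTG, the site of the clock proteins and their relatives, whose last bases overlap a further single arm of the palindrome, TGTTCT. The window before NM_011361 holds neither motif and has a TATA box (TATAAA) 11 to 6 bases before the start. Both windows are given from RefSeq (GRCm38.p6, plus strand, 5′ to 3′), since they precede the 2 starts nearest to the shared exons and 1 of them holds the hormone motif. Capitals mark the matched motifs.
Before NM_001161850, chr10:21993640-21993889: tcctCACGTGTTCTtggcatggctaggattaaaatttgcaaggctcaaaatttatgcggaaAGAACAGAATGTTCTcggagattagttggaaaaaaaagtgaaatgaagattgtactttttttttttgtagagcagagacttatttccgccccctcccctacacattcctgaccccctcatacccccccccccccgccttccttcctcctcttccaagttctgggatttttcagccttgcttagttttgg
Before NM_011361, chr10:21994416-21994665: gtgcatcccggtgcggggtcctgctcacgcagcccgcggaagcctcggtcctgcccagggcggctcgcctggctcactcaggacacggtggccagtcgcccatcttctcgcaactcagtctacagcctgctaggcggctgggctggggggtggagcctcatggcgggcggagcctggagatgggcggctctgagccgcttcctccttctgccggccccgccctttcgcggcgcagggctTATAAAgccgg

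The full palindrome was rare among windows of this length. It was in 3 of 32851 mouse windows (0.00913%), those of Sgk1, Acnat2 and Gm35041, and of the 449 genes of the table that have a window Sgk1 alone held it. A single arm, AGAACA, was common, in 16.1% of all windows and in 3 of the 6 of Sgk1. The E-box was in 6.02% of all windows and in 1 of the 6, and TATAAA was in 12.4% and in 2 of the 6. The cAMP response element TGACGTCA (1.55% of all windows), the AP-1 site TGACTCA (4.46%) and the EGR site GCGTGGGCG (0.536%), through which activity-regulated factors act, were in none of the 6. These matches describe letters in the reference and were not read as sites in use. The window before NM_011361 was also the richest in G and C of the 6, at 70.4% against 44.8% before NM_001161850.

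The level of Sgk1 was read as FPKM, fragments per kilobase of exon scaled to the depth of the library, which the authors computed beside the raw counts. The 3 SH libraries had 2760, 3714 and 2948 reads on Sgk1, and the 3 EE libraries had 3518, 4715 and 5816. In FPKM these were 20.8, 23.1 and 17.6 in SH and 22.6, 26.8 and 25.9 in EE. The libraries EE 2 and EE 3 stood above all SH libraries, SH 3 was the lowest of the 6, and the groups overlapped because SH 2 was 0.592 FPKM above EE 1.

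The order from the highest level to the lowest was EE 2, EE 3, SH 2, EE 1, SH 1 and SH 3. The 95% Poisson intervals, which cover counting error only, ran from 26.0 to 27.5 FPKM in EE 2 and from 25.3 to 26.6 in EE 3, so these neighbours did not differ beyond counting error. The interval of SH 2, 22.4 to 23.9 FPKM, likewise overlapped that of EE 1, 21.8 to 23.3. SH 1 (19.996 to 21.6 FPKM) and SH 3 (17.0 to 18.2 FPKM) were each apart from the libraries beside them. Within SH the highest library was 1.32 times the lowest, and within EE 1.19 times.

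**Figure D2:**
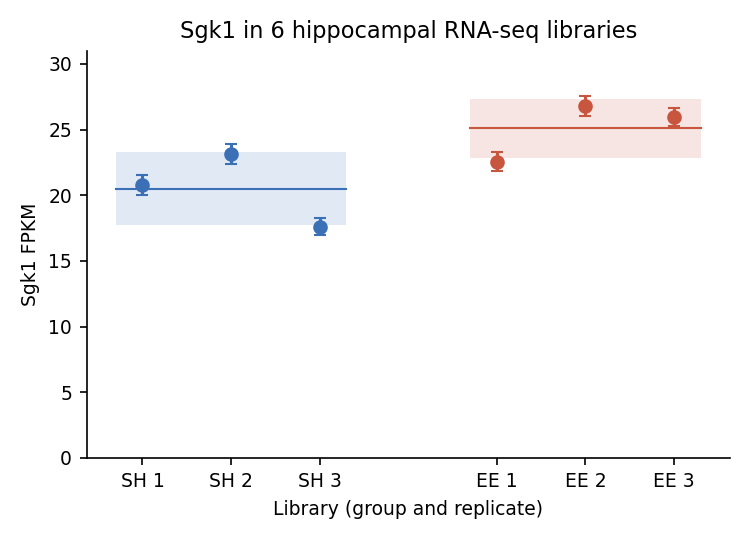
FPKM of Sgk1 in each library, with SH in blue and EE in red. Points carry 95% Poisson intervals of the count, lines are group means and shaded bands are 1 SD over the 3 libraries. EE 2 and EE 3 lie above all SH libraries, whereas EE 1 at 22.6 lies below SH 2 at 23.1.

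The mean level was 20.5 ± 2.79 FPKM in SH and 25.1 ± 2.23 FPKM in EE (SD, n = 3 each), a difference of 4.59 FPKM and a ratio of 1.22. edgeR's quasi-likelihood test gave a log2 fold change of 0.29 with a standard error of 0.10, an unadjusted p of 0.012 and a Benjamini-Hochberg adjusted p of 0.018. In this fit Sgk1 thus did not pass an unadjusted p of 0.01, the threshold that the study names. The authors had called it different in their own edgeR fit, whose p-values were not used here. In the same fit 112 of the 584 genes passed it as higher in EE (19.2%) and 237 as lower (40.6%). The adjusted p carries little information, since 99.8% of the preselected genes were under an adjusted p of 0.05. Whether a gene passed or was called was decided by the unadjusted p, also where an adjusted p is printed below. For the log2(FPKM + 0.1) of Sgk1 alone, an exact two-sided permutation test gave p = 0.2, where 3 libraries against 3 cannot give less than 0.1.

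The call on Sgk1 moved with the scaling, the test and single libraries, though the direction did not. On the same totals it passed with edgeR's likelihood ratio test, at an unadjusted p of 0.0038, and with DESeq2, at 0.0013. With edgeR's TMM factors computed on the table itself the value was 0.37 (log2) at an unadjusted p of 0.0041, a setting in which 229 genes were called higher and 53 lower, against 112 and 237 here. Without SH 3, the lowest library, edgeR gave 0.19, with an unadjusted p of 0.044, and without SH 2 or EE 1, the overlapping libraries, 0.39 and 0.36, with a p of 0.0017 and of 0.0024.

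Sgk1 was among the genes of the table that varied more within groups. Its log2 level had a within-group SD of 0.17, against a median of 0.079 over the 584 genes, which ranked it 63rd from the top. Counting error alone gave an SD of 0.024, and the SD between libraries of a group was 7.06 times that. Sgk1 was one of only 53 genes whose groups overlapped. The EE libraries all stood above the SH libraries for 37.2% of the genes and all below them for 53.8%. Of the 53 genes with overlap 29 had a higher mean in EE, and Sgk1 was 14th of these by log2 fold change.

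In size of difference Sgk1 was above the middle of the genes with a positive value. Its log2 fold change ranked 70th of these 246 genes, whose median was 0.21, while the median over all 584 genes was -0.18. By p it ranked 395th. In level it ranked 189th, above the table's median of 13.0 FPKM. The exons of Sgk1 held 49.9% G and C, between the medians of the genes with a positive log2 fold change (43.9%) and a negative one (56.8%). Of the 76 genes within 2 percentage points of its GC content 31 had a positive log2 fold change, with a median of -0.18 over the 76. With a GC offset in the fit the log2 fold change of Sgk1 was 0.26, with an unadjusted edgeR p of 0.020 and an adjusted p of 0.065.

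**Figure D3:**
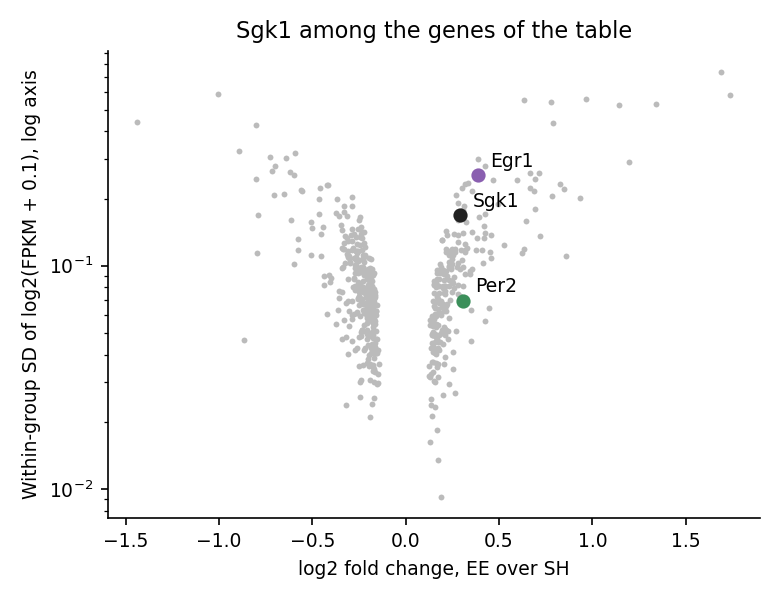
Within-group SD of log2(FPKM + 0.1), on a log axis, against the log2 fold change of EE over SH for the 584 genes (grey points). Sgk1 (0.29, SD 0.17) and Egr1 lie high among the genes of their fold change, and Per2 (0.31) lies lower.

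The FPKM of Sgk1 depends on which length stands for the gene. The length behind the deposited values was 4158 bases, which equals the summed exons of all 6 transcripts in 19 blocks. This is 1.34 times the length of the longest transcript, NM_001161845 (3106 bases), and 1.69 times that of NM_011361 (2456 bases). The same counts divided by the length of NM_011361 would give a level higher by that factor in every library, with no effect on the comparison of EE with SH. Reads on exons that NM_011361 lacks are part of these counts and could not be set apart. As CPM, which uses no gene length, Sgk1 had 86.3, 96.3 and 73.1 in SH and 93.8, 111.3 and 107.8 in EE. The noncoding gene Gm46215 on the minus strand overlaps the first exon of NM_001161845, and the pseudogene Gm18511 lies within an intron. Whether strand was used in counting is not given in the sources used here.

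The genes around Sgk1 in its own pathway were almost all outside the table. Of 36 listed genes of SGK1 signalling, among them its paralogs, the AKT kinases, PDK1, mTORC2, NEDD4L and the NDRG proteins, 2 were in the table. Rheb, the small GTPase that activates mTORC1, had 67.6, 66.9 and 74.3 FPKM in SH and 78.7, 83.2 and 74.5 in EE. The groups did not overlap, by a narrow margin between SH 3 and EE 3, and its log2 fold change of 0.18 ± 0.06 (SE) did not pass the threshold, with an unadjusted edgeR p of 0.012. Igf1r, the receptor tyrosine kinase for IGF-1 upstream of PI3-kinase, had 4.86, 4.58 and 4.75 FPKM in SH and 4.12, 4.10 and 3.90 in EE. It was lower in EE, with a log2 fold change of -0.23 ± 0.05 (SE), opposite in sign to Sgk1 and Rheb. Igf1r passed, with an unadjusted edgeR p of 0.0017 (adjusted p = 0.015).

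Of 32 listed glucocorticoid-responsive genes 8 were in the table. 6 had a positive log2 fold change and 2 a negative one, 4 were called higher and 2 lower, and the median of the 8 was 0.22. Of all 584 genes 19.2% were called higher and 40.6% lower, with a median of -0.18. The other 24, including the receptor gene Nr3c1 and the hormone targets Fkbp5, Tsc22d3, Klf9 and Per1, were not analysed here, so the count describes genes selected for a difference. Per2, Errfi1, Crhbp and Tiparp were called higher, Zbtb16 and Igfbp5 were called lower, and Sgk1 and Nr3c2 did not pass.

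Nr3c2 encodes the mineralocorticoid receptor, which binds the same hormones as the glucocorticoid receptor and also acts on the Sgk1 gene. It had 27.3, 29.9 and 28.0 FPKM in SH and 30.7, 31.5 and 32.7 in EE. All EE libraries were above all SH libraries, by a log2 fold change of 0.15 ± 0.05 (SE), and an unadjusted edgeR p of 0.0105 lay just over the threshold. Errfi1, a feedback inhibitor of the EGF receptor, had 17.3, 16.7 and 16.1 FPKM in SH and 19.1, 19.5 and 19.4 in EE. It was higher in EE with the groups apart (log2 fold change 0.21 ± 0.05, adjusted p = 0.015). Crhbp, which encodes the binding protein of corticotropin-releasing hormone, had 14.3, 14.8 and 14.5 FPKM in SH and 16.7, 17.5 and 17.0 in EE. It too was higher with no overlap (0.23 ± 0.06, adjusted p = 0.016).

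Tiparp, an ADP-ribosyltransferase that restrains the aryl hydrocarbon receptor, resembled Sgk1 in that its groups overlapped. It had 6.27, 5.13 and 4.84 FPKM in SH and 7.27, 6.83 and 6.22 in EE. The log2 fold change of 0.33 ± 0.10 passed, with an unadjusted edgeR p of 0.0093 (adjusted p = 0.016). The highest SH library was SH 1 for Tiparp and SH 2 for Sgk1. Zbtb16, a zinc finger repressor that glucocorticoids induce, had 12.1, 12.2 and 12.7 FPKM in SH and 9.22, 9.26 and 11.0 in EE. It was lower in every EE library (-0.33 ± 0.07, adjusted p = 0.014). Igfbp5, a binding protein of insulin-like growth factors, was lower as well, with 40.4, 36.8 and 39.2 FPKM in SH and 32.2, 33.1 and 33.1 in EE (-0.24 ± 0.05, adjusted p = 0.014).

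**Figure D4:**
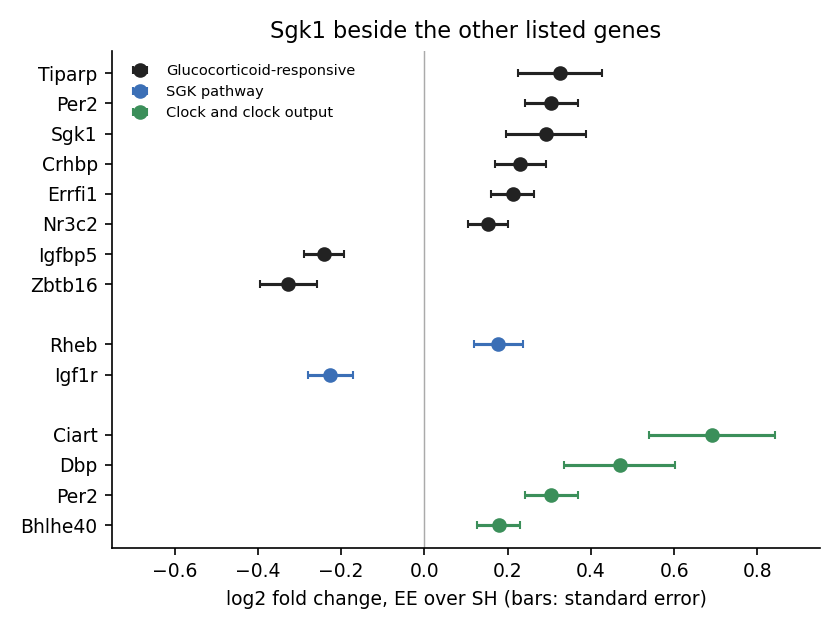
Log2 fold change of EE over SH with its standard error from edgeR for the genes of 3 lists that are in the table: glucocorticoid-responsive (black), SGK pathway (blue), and clock and clock output (green, where Per2 is shown again). Sgk1 at 0.29 stands between Per2 and Crhbp, and its bar is among the longer ones of its list.

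Per2 and Egr1 were set beside Sgk1 over the libraries, Per2 as a clock gene that glucocorticoids induce and Egr1 as a zinc finger factor that neuronal activity induces. Per2 had 7.16, 6.54 and 6.31 FPKM in SH and 8.15, 8.08 and 8.48 in EE, with no overlap, a log2 fold change of 0.31 ± 0.06 (SE) and an edgeR p of 0.00072. Its difference was of the size of that of Sgk1, with a within-group SD of 0.070 against 0.17. Egr1 had 50.5, 33.2 and 34.1 FPKM in SH and 51.4, 55.7 and 46.9 in EE. SH 1 lay among the EE libraries, the means were 39.3 ± 9.71 and 51.3 ± 4.40 FPKM (SD, n = 3 each), and the log2 fold change of 0.39 ± 0.14 (SE) did not pass, with an unadjusted edgeR p of 0.018. Without SH 1 the value of Egr1 was 0.61, with an unadjusted p of 1.2e-06, and it also passed with a GC offset (0.44) and with edgeR's likelihood ratio test (0.39). It did not pass with TMM factors, with limma or with DESeq2, which on the same totals gave an unadjusted p of 0.076. Sgk1 and Egr1 thus both overlapped between the groups, but through different libraries.

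All 3 genes were selected for a difference between the groups, so their levels over the 6 libraries move together by selection and no correlation over the unadjusted values is given for them. After each group's mean was subtracted, the log2 levels of Sgk1 deviated by 0.03, 0.18 and -0.21 in SH and by -0.15, 0.10 and 0.05 in EE. Those of Per2 deviated by 0.10, -0.03 and -0.08 and by -0.01, -0.03 and 0.04. Those of Egr1 deviated by 0.39, -0.21 and -0.17 and by 0.01, 0.12 and -0.13. SH 2 was the library farthest up for Sgk1 and the farthest down for Egr1, while in SH 3 all of them were below their group mean.

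The deviations of Sgk1 had a Pearson r of 0.34 with those of Per2 and of 0.07 with those of Egr1, over 6 libraries with 4 degrees of freedom. Among the 583 other genes these ranked 181st and 290th, and the median r over all of them was 0.07. The r values within SH and within EE were 0.39 and 0.18 for Per2 and 0.06 and 0.14 for Egr1, each over 3 libraries. Both depended on single libraries. Without SH 3 r was -0.37 for Per2 and -0.43 for Egr1, and without SH 2 it was 0.67 and 0.66. For Egr1 r was also below 0 without SH 1 (-0.06) or EE 2 (-0.03). The relation was not tested, and these values are given as a description.

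**Figure D5:**
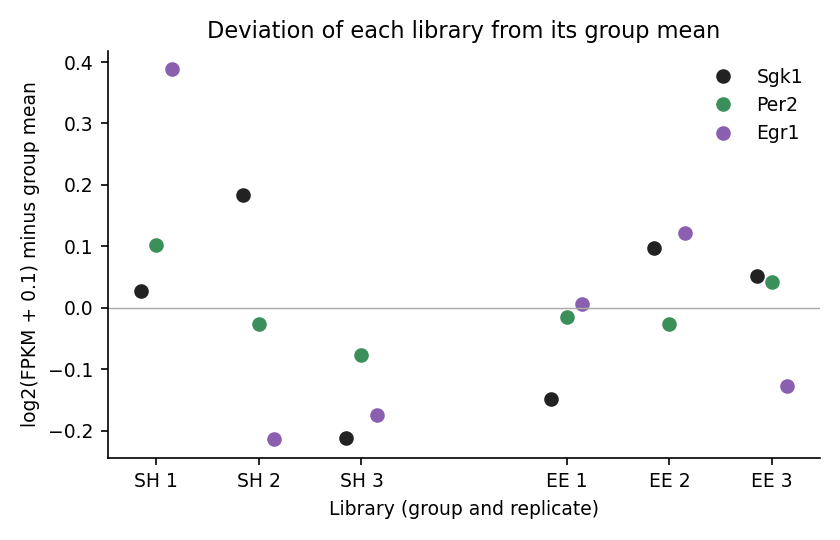
Deviation of log2(FPKM + 0.1) from the mean of its group in each of the 6 libraries, for Sgk1 (black), Per2 (green) and Egr1 (purple). In SH 2 Sgk1 is up by 0.18 and Egr1 down by 0.21, and in SH 3 all of them are below their group mean.

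The 5 genes whose deviations were most like those of Sgk1, among genes with a mean of at least 1 FPKM, were Lmnb1 (r = 0.99), Ccdc57 (0.98), Lrp4 (0.96), Ift122 (0.95) and Gm34583 (0.95). Of the 583 genes 9 had an r over 0.9 and 16 an r under -0.9, with 6 libraries behind each value. Lmnb1, which encodes the nuclear lamina protein lamin B1, had 3.29, 3.65 and 2.96 FPKM in SH and 2.43, 2.74 and 2.63 in EE. Its libraries stood in the same order as those of Sgk1 within each group, yet its level was lower in EE with no overlap (log2 fold change -0.34, adjusted p = 0.016). Lrp4, a receptor for agrin, had 5.13, 5.43 and 4.81 FPKM in SH and 4.06, 4.49 and 4.24 in EE (-0.26, adjusted p = 0.015).

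Ccdc57, a gene for a coiled-coil protein, had 1.16, 1.23 and 1.11 FPKM in SH and 0.914, 0.964 and 0.961 in EE (-0.30, adjusted p = 0.016). Ift122, a subunit of the complex that carries cargo along cilia, had 7.50, 7.997 and 7.03 FPKM in SH and 6.29, 6.54 and 6.69 in EE, and did not pass (-0.21, with an unadjusted edgeR p of 0.013). These 5 genes have the highest of 583 r values at that floor, each with 4 degrees of freedom, and the relation was not tested. Of them 4 had lower means in EE, the opposite of Sgk1, as did 338 of the 584 genes of the table. The predicted gene Gm34583 was the only one of the 5 that was higher, with 3.76, 3.94 and 3.63 FPKM in SH and 4.26, 4.45 and 4.53 in EE (0.23, adjusted p = 0.016).

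Of 28 listed activity-regulated genes 19 were in the table, 17 with a positive log2 fold change, 11 called higher and 2 lower, with a median of 0.33, against 246 of the 584 genes with a positive value, 19.2% called higher and 40.6% called lower over the table. The lists share genes, so their counts are not of separate sets. Tiparp and Errfi1 were also counted as glucocorticoid-responsive, Bhlhe40 is counted again with the clock genes, and Per2 is on the glucocorticoid and clock lists. EE 2, the library with the most Sgk1, was the highest EE library for 13 of the 19, whereas among SH libraries SH 2 was the highest for only 3 of them and SH 1 for 9. Within groups Atf3, a stress-induced bZIP factor, had an r of 0.84 with Sgk1 and Egr4 an r of 0.78, while Bdnf, the neurotrophin, had -0.75 and Ptgs2, the inducible cyclooxygenase, -0.70. Bdnf had 8.03, 7.68 and 8.18 FPKM in SH and 9.51, 9.57 and 9.36 in EE, so its highest SH library, SH 3, was the lowest one for Sgk1. Atf3 had 0.396, 0.472 and 0.301 FPKM in SH and 0.728, 0.824 and 0.684 in EE, in the same order as Sgk1 among the SH libraries. Its mean of 0.57 FPKM was under the floor of 1 FPKM set above for the most like genes. The r and the order of Atf3 thus rest on a low level, where counting error is large. Atf3 and Bdnf were both called higher in EE without overlap (log2 fold change 0.93 for Atf3 and 0.25 for Bdnf, adjusted p = 0.014 for each).

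Of 19 listed genes of the circadian clock and its output 4 were in the table, and all were called higher in EE without overlap, with a median log2 fold change of 0.39, where 19.2% of the table's genes were called higher and 37.2% stood higher without overlap. Besides Per2 they were Ciart, a repressor of the clock (0.69 ± 0.15, SE), Dbp, a bZIP factor driven by it (0.47 ± 0.13), and Bhlhe40, a repressor that binds the E-box (0.18 ± 0.05). EE 3 was the highest EE library for all 4, whereas EE 2 was the highest for Sgk1. SH 3, the lowest library of Sgk1, was the highest SH library for 3 of the 4. Dbp had 21.0, 17.0 and 25.8 FPKM in SH and 27.6, 27.1 and 33.6 in EE, and its deviations had an r of -0.65 with those of Sgk1.

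Sgk1 is transcribed in neurons and in glia, and in bulk tissue fewer cells of a type and less RNA per cell cannot be told apart. Of the listed markers of oligodendrocytes, 0 of 12 were in the table, and of choroid plexus 0 of 9, so these cells could not be followed here. The calls on the other markers stand against 19.2% of all 584 genes called higher and 40.6% called lower. Of the astrocyte markers 2 of 7 were, Aldh1l1 and Gja1, both called lower, with a summed level of 101 to 104 FPKM in SH and 91.2 to 92.4 FPKM in EE. The microglial marker P2ry12, 1 of 7, was called higher, at 18.6 to 21.7 and 23.5 to 24.8 FPKM. Of the endothelial markers 4 of 10 were in the table, Cldn5 and Mcam called lower and Slco1a4 and Ptprb with positive values that did not pass, and their sum was 13.9 to 14.97 FPKM in SH and 12.9 to 13.4 FPKM in EE.

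Among the hippocampal neuron markers, Neurod6 and Dcx, the marker of young neurons, were called higher in EE, and C1ql2 did not pass (log2 fold change -0.29). Neurod6 had 142.8, 132.1 and 139.4 FPKM in SH and 155.1, 158.3 and 151.2 in EE. The haemoglobin gene Hba-a1, 1 of 5 blood markers, had 58.5, 57.6 and 78.1 FPKM in SH and 95.1, 75.4 and 78.7 in EE, and the groups overlapped. Its deviations ran against those of Sgk1, with an r of -0.96 over the 6 libraries, the library lowest in Sgk1 within each group being the highest in Hba-a1. The part of cell makeup or of blood in the level of Sgk1 was not tested.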

How the data were processed

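Hippocampal RNA was sequenced in 3 SH and 3 EE libraries, and the labels gave each library its group and number. The authors mapped reads to mm10 with Hisat2, counted them per gene with FeatureCounts 1.5.0-p3, and deposited raw counts for the 584 genes they called different. The authors' FPKM stand beside the counts, as do their p-values, log2 fold changes and directions, which were not used. All 6 libraries have their own columns. The total reads behind FPKM, 31969156 to 53943195 per library, were computed from count over FPKM and RefSeq exon lengths of GRCm38, on which 205 genes agreed to within 0.001%. The table holds 8.12% to 8.85% of them. By symbol 561 genes matched the annotation, 14 by an older symbol, and 9 did not.

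EE was compared with SH on the counts with edgeR 4.0.16 (quasi-likelihood test, R 4.3.3), with these totals as library sizes and no filter on low counts, since the smallest count was 19. Genes under an unadjusted p of 0.01 were called, and adjusted p-values are Benjamini-Hochberg over all 584. Standard errors come from edgeR's F statistic. The exact permutation test is two-sided on the group means of log2(FPKM + 0.1). Likeness is Pearson's r of log2(FPKM + 0.1) after the mean of each group is subtracted. Alternatives used limma 3.58.1, DESeq2 1.42.0, a GC offset (570 genes, 97.6%), a replicate block and leaving out each library. The fits were tested on simulated data. Poisson intervals cover counting error only.

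Sgk1, Per2 and Egr1, the gene lists and the rule for named genes (list members in the table, and the 5 genes most like Sgk1) were chosen with earlier results of these data known. Promoter sequences are from RefSeq GRCm38.p6. A listed marker gene of hippocampal neurons is not reported here, nor the summed level of that list.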

Additional observations from a re-analysis of the deposited data

How the results depend on the processing

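The log2 fold change of Sgk1 was positive in all 10 alternatives to the fit and ranged from 0.26 to 0.40, and p, from 4.5e-05 to 0.030, was under 0.01 in 6 of them: 0.37 with edgeR's TMM factors, 0.40 with DESeq2's own size factors, 0.29 with DESeq2 on the totals, 0.29 with edgeR's likelihood ratio test, and the 2 fits with a replicate block. TMM and DESeq2's factors, computed on the selected genes, moved the median log2 fold change of all genes by 0.078 and 0.11. Without 1 library it ranged from 0.19 to 0.39, and p was under 0.01 in 2 of 6 fits. A filter on low counts removed no gene. For these changes the cause was not tested.

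Of the 584 genes 349 were called, 135 with the GC offset, and 135 to 324 without 1 library. DESeq2's own factors called 233 higher and 29 lower. The r of Sgk1 was 0.086 with Per2 and -0.14 with Egr1 as Spearman's rho, and without 1 library ranged from -0.37 to 0.67 and from -0.43 to 0.66. Per2 stayed under p of 0.01 in 6 of 6 such fits, and Egr1 was in 1 of 6 (without SH 1, 0.61).

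Deviations of same-numbered libraries correlated at 0.150, -0.044 and -0.098 over genes, and those of libraries with different numbers at -0.22 to 0.26. Deviations within a group are tied to each other through its mean, so these values do not settle whether the numbers pair the libraries. With the replicate block the log2 fold change of Sgk1 was 0.30, with an unadjusted p of 0.0082, and 214 genes were called, and with the block and the GC offset 0.26, with a p of 0.0077, and 127. Egr1 passed in both fits (0.41 and 0.46).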
